A study of Homo sapiens with 20 samples.

Results

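Gene expression was compared between ricolinostat and panobinostat, each given for 20 h to OPM2 cells, an established line from human multiple myeloma. The ricolinostat group received 100 nM and the panobinostat group 10 nM, and each group had 2 libraries, so the comparison rests on 4 of the 20 libraries of the series. It was made over all expressed genes: 20957 of the 78932 gene identifiers passed the filter on low counts. The other groups used here were ricolinostat and panobinostat at 2 h and 5 h at the same doses, 10 nM romidepsin at 20 h, and the DMSO vehicle, with 2 libraries each. The labels call the replicates biological and independent, give no harvest time for DMSO and list the batch as unknown. The titles, the treatment protocol and the design text give 100 nM for ricolinostat, but the treatment entry of these libraries reads 10 nM. Because the doses of the inhibitors differ, the values compare the treatments as given and not the compounds at a matched dose.

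Histone deacetylases (HDACs) remove acetyl groups from lysines, the class I enzymes mainly on histones in the nucleus and HDAC6 mainly on cytoplasmic proteins such as tubulin. Ricolinostat and panobinostat are both hydroxamic acids, a group that binds the zinc ion in the active site. Ricolinostat is known as an inhibitor with preference for HDAC6 and panobinostat as one that acts on most zinc-dependent HDACs, and romidepsin, a cyclic depsipeptide, is known for its preference for class I enzymes. A myeloma cell is a malignant plasma cell, the antibody-secreting end stage of the B lineage, whose identity and growth depend on transcription factors such as IRF4, PRDM1, XBP1, IKZF1, IKZF3 and MYC.

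RNA was selected on poly(A) tails and sequenced strand-specifically. Total counts per library were 23362240 and 21916260 for ricolinostat and 21983409 and 29088868 for panobinostat at 20 h, within 17264640 to 29088868 over the series. Counts of replicates differed by more than sampling noise in every group, so all were kept as separate libraries. All 10 plasma cell markers checked (SDC1, TNFRSF17, IRF4, PRDM1, XBP1, MZB1, POU2AF1, CD38, SLAMF7 and JCHAIN) were detected in the DMSO libraries. Their summed level in CPM (counts scaled to a common library size) was 5753 and 5729.9 CPM with ricolinostat, 839.8 and 863 CPM with panobinostat and 7600.2 and 7499.7 CPM in DMSO. Mitochondrially encoded genes took 4.72% and 5.09% of counts with ricolinostat, 6.60% and 6.08% with panobinostat and 4.69% and 4.41% in DMSO. In bulk samples, fewer cells of a kind and less RNA per cell cannot be told apart.

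At 20 h the treatments left the cells with widely different transcriptomes. The edgeR quasi-likelihood test with Benjamini-Hochberg adjustment over all genes called 6714 genes higher with ricolinostat than with panobinostat (32.0% of those tested) and 7704 lower (36.8%), at an adjusted p under 0.05. With a 2-fold difference asked as well, 3618 genes were higher (17.3%) and 5112 lower (24.4%). The number of genes with at least 1 count was 26916 and 26906 with ricolinostat, 33278 and 34914 with panobinostat and 25481 and 25993 in DMSO. All log2 fold changes below are ricolinostat over panobinostat with their standard error, on TMM-scaled counts, and all adjusted p-values come from this test. The standard error is derived from the test statistic and can understate the error of genes with few counts in a group. Scaling by library size alone moved the median of all genes by -0.20 on the log2 scale, and DESeq2's size factors by -0.07.

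**Figure D1:**
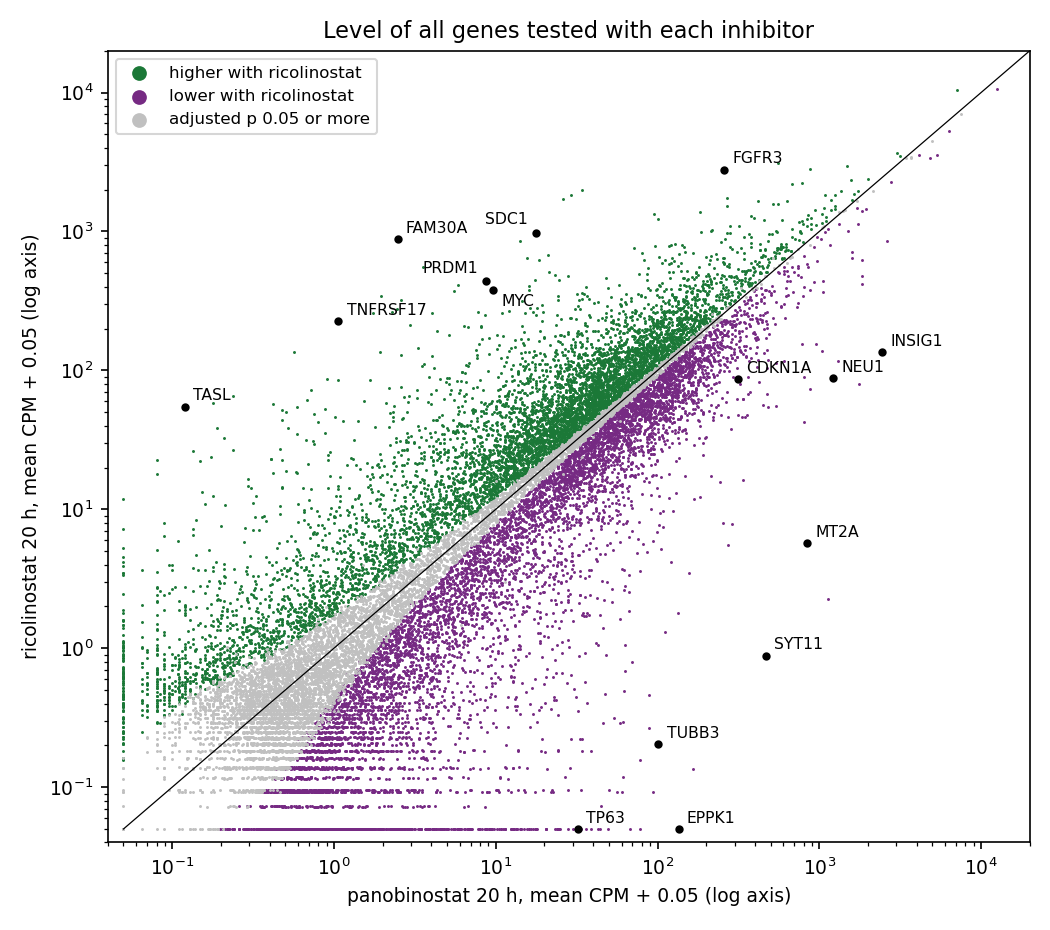
Mean CPM of each of the 20957 genes tested with ricolinostat (vertical) and panobinostat (horizontal) at 20 h, 2 libraries each, after adding 0.05 CPM, on log axes. Each point is a gene, green where called higher and purple where called lower with ricolinostat, the line marks equal levels, and the row of points at the bottom edge holds genes with 0 counts in both ricolinostat libraries, such as EPPK1 and TP63.

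Nearly all genes of plasma cell identity and myeloma growth were higher with ricolinostat than with panobinostat. Of the 32 genes listed, 26 had 1 CPM or more in DMSO, and of these 25 were higher and 1 lower with ricolinostat, with a median log2 fold change of 3.79. Over all 12846 genes at that DMSO level, 47.5% were higher and 32.7% lower, with a median of 0.19. These shares are the background for the counts of each list below. The exception, named after its value was seen, was DERL3, a factor of endoplasmic reticulum protein degradation, which lost its call when ricolinostat replicate 2 or panobinostat replicate 2 was left out and when no filter on low counts was used. The level in DMSO is used to delimit each list because it takes no part in the comparison, whereas a gene could pass the filter on low counts through panobinostat alone.

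TNFRSF17 (ENSG00000048462, chr16:11965107-11968068 in GENCODE 29 on GRCh38), which encodes the plasma cell receptor BCMA, had 225 and 226 CPM with ricolinostat, 0.861 and 1.17 CPM with panobinostat and 301 and 301 CPM in DMSO. Both panobinostat libraries were near 1 CPM and far below the other 4 libraries, and the log2 fold change was 7.76 ± 0.09 (adjusted p = 3.6e-89). SDC1, the plasma cell surface proteoglycan CD138, had 976 and 988 CPM with ricolinostat, 18.0 and 17.6 CPM with panobinostat and 1111 and 1126 CPM in DMSO, a log2 fold change of 5.79 ± 0.05 (adjusted p = 6.0e-97). PRDM1, the repressor that drives plasma cell differentiation, had 441 and 435 CPM with ricolinostat, 8.22 and 9.14 CPM with panobinostat and 516 and 514 CPM in DMSO, a log2 fold change of 5.65 ± 0.06 (adjusted p = 5.6e-94). For SDC1 and PRDM1 too, no panobinostat library came near a ricolinostat library. POU2AF1, a coactivator of octamer factors in B cells, reached 284 and 273 CPM with ricolinostat and 2.54 and 2.25 CPM with panobinostat (6.87 ± 0.07). MZB1, an endoplasmic reticulum protein of antibody-secreting cells, reached 82.3 and 87.5 CPM with ricolinostat and 0.900 and 1.11 CPM with panobinostat (6.37 ± 0.11). CD28, a costimulatory receptor also carried by myeloma cells, had 256 and 261 CPM with ricolinostat and 1.88 and 1.53 CPM with panobinostat (7.26 ± 0.09). In these 3 genes the panobinostat libraries were at most 2.54 CPM.

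The transcription factors of the myeloma program differed by very unequal amounts. MYC (ENSG00000136997, chr8:127735434-127741434) had 386 and 378 CPM with ricolinostat, 8.80 and 10.3 CPM with panobinostat and 448 and 432 CPM in DMSO. The ricolinostat libraries stood slightly under the DMSO libraries and the panobinostat libraries far under both, with a log2 fold change of 5.31 ± 0.06 (adjusted p = 5.1e-91). IKZF1 had 257 and 248 CPM with ricolinostat, 8.10 and 8.90 CPM with panobinostat and 237 and 244 CPM in DMSO (4.89 ± 0.07). Its relative IKZF3 had 111 and 115 CPM with ricolinostat, 6.14 and 7.49 CPM with panobinostat and 129 and 127 CPM in DMSO (4.04 ± 0.08). These zinc finger factors are the proteins degraded under lenalidomide. XBP1, the factor of the secretory program, had 765 and 756 CPM with ricolinostat, 70.3 and 73.4 CPM with panobinostat and 910.2 and 928 CPM in DMSO (3.40 ± 0.04). IRF4, on which myeloma cells depend, had 1088 and 1096 CPM with ricolinostat, 316 and 320.3 CPM with panobinostat and 1767 and 1736 CPM in DMSO. It was the transcription factor of this group with the smallest difference (1.78 ± 0.04), and its ricolinostat libraries lay between those of the other groups.

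NSD2 and FGFR3, the histone methyltransferase and receptor genes activated by the t(4;14) translocation, which the OPM2 line is known to carry, were both higher with ricolinostat. FGFR3 had 2767 and 2811 CPM with ricolinostat, 255 and 263 CPM with panobinostat and 3519 and 3551 CPM in DMSO (3.43 ± 0.04). NSD2 had 2792 and 2795 CPM with ricolinostat, 886 and 865 CPM with panobinostat and 2492 and 2519 CPM in DMSO (1.67 ± 0.03), so its fold change was smaller than that of FGFR3. CCND2, the D-type cyclin of this myeloma subtype, had 479 and 495 CPM with ricolinostat, 23.05 and 23.2 CPM with panobinostat and 579 and 566 CPM in DMSO (4.39 ± 0.05). CD38, the surface enzyme targeted by daratumumab, was low throughout at 10.6 and 9.79 CPM with ricolinostat, 4.03 and 3.58 CPM with panobinostat and 11.6 and 11.2 CPM in DMSO (1.43 ± 0.16, adjusted p = 2.0e-13).

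**Figure D2:**
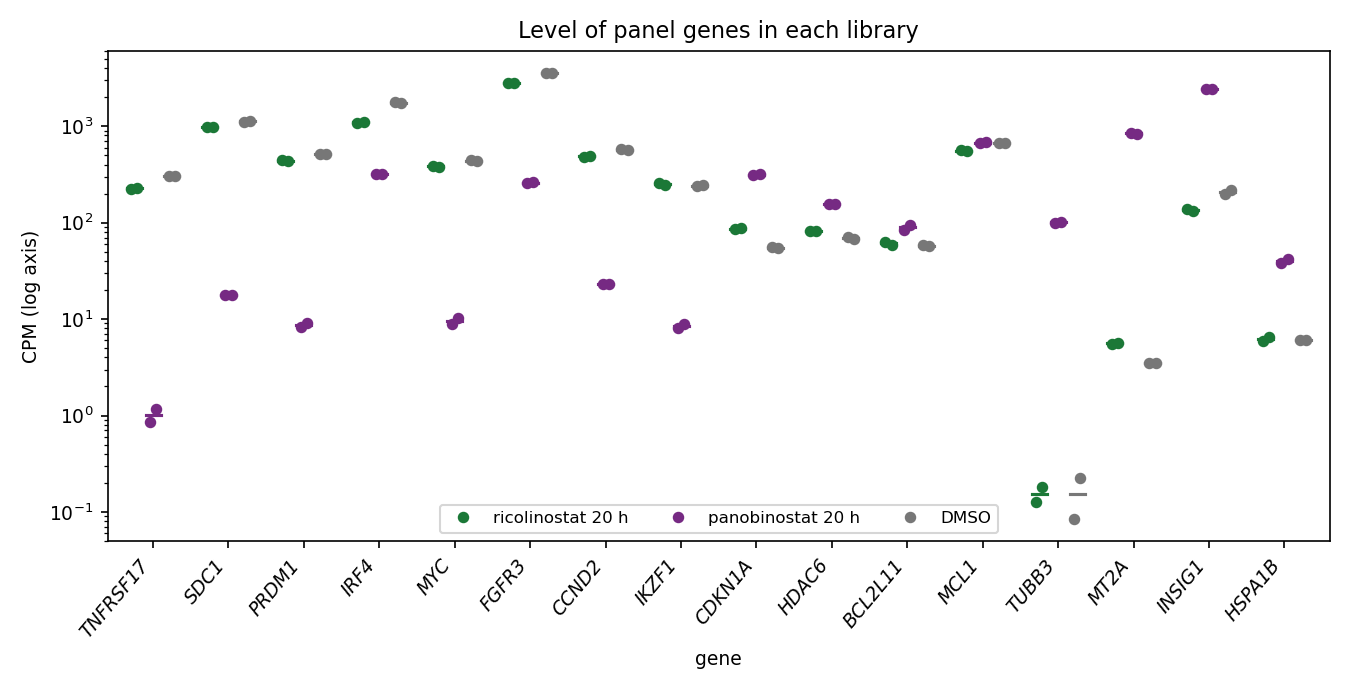
CPM of 16 panel genes in each library of ricolinostat 20 h (green), panobinostat 20 h (purple) and DMSO (grey), on a log axis, with a bar at each group's mean of 2 libraries. The genes from TNFRSF17 to IKZF1 lie lower with panobinostat than with ricolinostat, whereas CDKN1A, HDAC6, BCL2L11, MCL1, TUBB3, MT2A, INSIG1 and HSPA1B lie higher.

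The 12 protein-coding genes with the largest positive log2 fold changes were TASL, CCR2, WDR72, CTHRC1, TNFRSF17, GPR171, TRIM71, AFAP1L2, CCR1, TMEM132E, CD28 and TMEM255A. TASL, an adaptor of endolysosomal Toll-like receptor signalling, had 54.0 and 55.7 CPM with ricolinostat, 0.0783 and 0.0601 CPM with panobinostat and 55.9 and 55.3 CPM in DMSO (9.55 ± 0.19, adjusted p = 1.3e-68). Its panobinostat libraries held 4 counts together, so the size of this difference is less certain than that standard error. CCR2 and CCR1 encode receptors for inflammatory chemokines. CCR2 had 21.4 and 24.0 CPM with ricolinostat, 0 and 0.0601 CPM with panobinostat and 12.7 and 13.1 CPM in DMSO, and as the panobinostat libraries held 1 to 3 counts together, the difference is given as a ratio of 666 (95% counting interval 184 to 5510). Such intervals, and the floors used for genes at 0, cover counting error only. CCR1 had 344 and 342 CPM with ricolinostat, 2.11 and 1.68 CPM with panobinostat and 301 and 287 CPM in DMSO (7.51 ± 0.08). In these 3 genes the panobinostat libraries were far below all others, and the ricolinostat libraries were near or above the DMSO libraries.

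GPR171, a G protein-coupled receptor, had 24.1 and 20.0 CPM with ricolinostat, 0.0783 and 0.120 CPM with panobinostat and 9.61 and 9.84 CPM in DMSO (7.68 ± 0.28), with both ricolinostat libraries above and both panobinostat libraries below the DMSO libraries. It overlaps MED12L on the opposite strand, which had 3365 counts over all 20 libraries against 3872 of GPR171. The strand setting of the counting is not given, so their reads may be shared. TRIM71, an RNA-binding ubiquitin ligase of early development, had 8.26 and 7.71 CPM with ricolinostat, 0.0783 and 0 CPM with panobinostat and 3.64 and 3.24 CPM in DMSO, with a ratio of 235 (95% counting interval 64.6 to 1950). AFAP1L2, an adaptor that associates with actin, had 32.3 and 32.9 CPM with ricolinostat and 0.0783 and 0.241 CPM with panobinostat (7.54 ± 0.24). TMEM255A had 55.0 and 59.1 CPM with ricolinostat and 0.0783 and 0.661 CPM with panobinostat (7.11 ± 0.18). WDR72, known from tooth enamel formation, had 139.7 and 131 CPM with ricolinostat and 0.430 and 0.601 CPM with panobinostat (7.99 ± 0.12). CTHRC1, a secreted collagen triple helix protein, had 305 and 299.9 CPM with ricolinostat and 1.02 and 1.74 CPM with panobinostat (7.72 ± 0.11). TMEM132E had 567 and 534 CPM with ricolinostat and 3.21 and 3.76 CPM with panobinostat (7.29 ± 0.07). In each of these 12 genes the lowest ricolinostat library was above the highest panobinostat library, as the selection required; over all genes this held for 38.2%, with the reverse in 46.3%. Among the long non-coding RNAs, FAM30A ranked first with 898 and 869.7 CPM with ricolinostat, 2.78 and 2.07 CPM with panobinostat and 620.1 and 618 CPM in DMSO (8.53 ± 0.07). SILC1 had 253 and 271 CPM with ricolinostat and 2.43 and 2.04 CPM with panobinostat (6.88 ± 0.09). TMEM132E-DT, the divergent transcript beside TMEM132E, had 10.6 and 11.1 CPM with ricolinostat and 0.157 and 0.0601 CPM with panobinostat (6.66 ± 0.37).

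The protein-coding genes with the largest negative log2 fold changes were at or near 0 counts both with ricolinostat and in DMSO. Each of the 12 had 0 counts in both ricolinostat libraries, so each difference is a lower bound against a floor of 3 counts over the 2 libraries. EPPK1 (ENSG00000261150, chr8:143857324-143878464), the cytoskeletal linker epiplakin, had 136 and 134 CPM with panobinostat, at least 2040-fold lower with ricolinostat. BAIAP2, which bends membranes at actin-rich protrusions, had 47.9 and 51.4 CPM with panobinostat (at least 755-fold lower). RFPL4A had 37.2 and 40.2 CPM (at least 589-fold lower). TP63, the p53 family factor of stratified epithelia, had 33.4 and 31.0 CPM (at least 485-fold lower). Of these 4, EPPK1 had 0.0847 and 0 CPM in DMSO, BAIAP2 0.0423 and 0 CPM, RFPL4A 0 and 0 CPM and TP63 0 and 0 CPM.

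CEACAM20, of the carcinoembryonic antigen family of adhesion proteins, had 29.98 and 30.2 CPM with panobinostat (at least 456-fold lower with ricolinostat). CDH15, the cadherin of muscle cells, had 23.7 and 24.9 CPM with panobinostat and 0.254 and 0.0373 CPM in DMSO (at least 369-fold lower with ricolinostat than with panobinostat). MMP17, a membrane-bound matrix metalloproteinase, had 25.05 and 21.7 CPM with panobinostat and 0.212 and 0.224 CPM in DMSO (at least 350-fold). In DMSO these 2 genes were thus just above 0, while CEACAM20 and the next 4 had 0 counts there. NDST4, a heparan sulfate sulfotransferase, had 16.2 and 19.1 CPM with panobinostat (at least 270-fold lower with ricolinostat). DNAAF3, an assembly factor of ciliary dynein, had 17.4 and 17.4 CPM (at least 263-fold lower). NLRP2, of the NLR family, had 16.04 and 13.8 CPM (at least 224-fold lower). SLC2A3, the glucose transporter GLUT3, had 11.7 and 15.1 CPM (at least 206-fold lower). The long non-coding RNAs with the largest falls also had 0 counts with ricolinostat. TM4SF18-AS1 had 19.6 and 21.4 CPM with panobinostat (at least 312-fold lower with ricolinostat), and lost its call with DESeq2 (adjusted p = 0.059). CCDC13-AS2 had 14.3 and 14.4 CPM (at least 218-fold lower) and LINC02779 13.3 and 13.1 CPM (at least 200-fold lower). The strand setting of the counting is not given in the sources used here, so that reads of an antisense gene and its partner cannot be told apart. The partners TM4SF18 and CCDC13 had 49 and 89 counts over all 20 libraries, against 1484 and 1034 of the antisense genes.

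Several neuronal genes were near 0 with ricolinostat and in DMSO. Of the 40 listed, 24 passed the filter on low counts, and 17 of these were under 1 CPM in DMSO. Of the 7 at 1 CPM or more in DMSO, 2 were higher and 3 lower with ricolinostat (median log2 fold change -0.08), and scaling by library size alone gave 5 lower. SYT11, a synaptotagmin of vesicle traffic, had 0.856 and 0.816 CPM with ricolinostat, 464 and 472 CPM with panobinostat and 0.508 and 0.224 CPM in DMSO (-9.12 ± 0.10, adjusted p = 8.0e-92). NES, the intermediate filament nestin of neural progenitors, had 0.0856 and 0 CPM with ricolinostat and 55.2 and 56.6 CPM with panobinostat, a ratio of panobinostat over ricolinostat of 1270 (95% counting interval 351 to 10500). NRXN2, a presynaptic adhesion protein, had 0.0856 and 0.0907 CPM with ricolinostat and 28.9 and 28.5 CPM with panobinostat (-8.27 ± 0.37). The ricolinostat libraries were within 1 CPM of the DMSO libraries for all of these 3 genes.

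Tubulin is the best known substrate of HDAC6. Among tubulins and cytoskeleton regulators, of the 26 genes listed, 17 had 1 CPM or more in DMSO, of which 4 were higher and 10 lower with ricolinostat (median log2 fold change -0.58). Summed over the list, levels were 3914 and 3818 CPM with ricolinostat, 4188.5 and 4342 CPM with panobinostat and 4025 and 4019 CPM in DMSO. TUBB3, TUBB4A, MAP1A and STMN2, given next, were under 1 CPM in DMSO and are not among the 17. TUBB3 (ENSG00000258947, chr16:89921392-89938761), the tubulin of neurons, had 0.128 and 0.181 CPM with ricolinostat, 99.9 and 101.5 CPM with panobinostat and 0.0847 and 0.224 CPM in DMSO. It was at the detection limit with ricolinostat and in DMSO and well expressed with panobinostat, a log2 fold change of -9.30 ± 0.20 (adjusted p = 5.4e-66). TUBB4A, another neuronal tubulin, had 1.37 and 0.725 CPM with ricolinostat and 42.4 and 41.3 CPM with panobinostat (-5.30 ± 0.20). MAP1A, a microtubule-associated protein, had 1.03 and 1.496 CPM with ricolinostat and 108 and 115 CPM with panobinostat (-6.47 ± 0.14). STMN2, a neuronal stathmin, had 0 counts with ricolinostat and 5.83 and 6.10 CPM with panobinostat (at least 90.6-fold lower). GSN, the actin-severing protein gelsolin, had 11.5 and 9.75 CPM with ricolinostat, 68.9 and 67.4 CPM with panobinostat and 1.99 and 1.60 CPM in DMSO (-2.68 ± 0.11), with ricolinostat between the other groups. It overlaps RAB14 on the opposite strand, which had many more counts.

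Metallothioneins are small proteins that bind zinc and copper. Of the 12 genes listed, which included the factor MTF1 and zinc transporters, 5 had 1 CPM or more in DMSO, of which 1 was higher and 4 lower with ricolinostat (median log2 fold change -1.95). Only MT1X and MT2A of these 5 are metallothioneins. The others are MTF1, SLC30A1 and SLC39A10, and the median is the value of MTF1. MT2A (ENSG00000125148, chr16:56608199-56609497) had 5.56 and 5.71 CPM with ricolinostat, 845 and 836 CPM with panobinostat and 3.47 and 3.47 CPM in DMSO. The panobinostat libraries stood far above all other libraries, with a log2 fold change of -7.22 ± 0.15 (adjusted p = 6.6e-13). MT1X had 6.21 and 4.81 CPM with ricolinostat and 272 and 275 CPM with panobinostat (-5.63 ± 0.08). MT1G had 0.0428 and 0 CPM with ricolinostat and 6.77 and 5.89 CPM with panobinostat, a ratio of panobinostat over ricolinostat of 285 (95% counting interval 50.8 to 11300). MTF1, the transcription factor of these genes, had 35.4 and 37.4 CPM with ricolinostat and 142 and 139.6 CPM with panobinostat (-1.95 ± 0.06). Metallothionein genes are near-identical copies, and how the counting treated shared reads is not given in the sources used here. The promoter window of MT2A is shown because metallothionein promoters are the classic carriers of metal response elements. It runs from 250 bases before to 50 bases after the start, at chr16:56608334-56608633 on the plus strand of GRCh38.p14 in RefSeq, with matches to the metal response core (TGCGCNC or TGCACNC, both strands) in capitals. The window held 8 matches, and 29.6% of 35116 promoter windows of 300 bases held at least 1. A match is a description of the letters and no evidence of binding.

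MT2A: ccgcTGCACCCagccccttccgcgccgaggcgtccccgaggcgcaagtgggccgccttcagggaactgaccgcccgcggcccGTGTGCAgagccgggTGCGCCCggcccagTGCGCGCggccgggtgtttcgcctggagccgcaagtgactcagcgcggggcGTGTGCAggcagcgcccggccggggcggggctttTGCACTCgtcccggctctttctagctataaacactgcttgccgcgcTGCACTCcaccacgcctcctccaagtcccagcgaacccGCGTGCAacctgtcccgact

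CDKN1A (ENSG00000124762, chr6:36676460-36687339), the cell cycle inhibitor p21 and a standard response gene of HDAC inhibitors, was lower with ricolinostat. It had 85.6 and 87.3 CPM with ricolinostat, 309.8 and 320.5 CPM with panobinostat and 55.6 and 54.1 CPM in DMSO. The ricolinostat libraries were moderately above DMSO and the panobinostat libraries well above both, with a log2 fold change of -1.87 ± 0.05 (adjusted p = 5.2e-58). Among CDK inhibitors and p53 targets, of the 30 genes listed, 26 had 1 CPM or more in DMSO, of which 10 were higher (38.5%) and 14 lower (53.8%) with ricolinostat (median log2 fold change -0.49). CDKN1C, the inhibitor p57, had 0.385 and 0.363 CPM with ricolinostat and 22.5 and 23.4 CPM with panobinostat (-5.92 ± 0.30). It was under 1 CPM in DMSO and is not among the 26. CDKN2A, the locus of p16, went the other way with 147 and 137 CPM with ricolinostat, 10.2 and 10.2 CPM with panobinostat and 134 and 130.4 CPM in DMSO (3.80 ± 0.07). The promoter of CDKN1A is shown because its GC boxes, bound by SP1, are the elements through which HDAC inhibitors are known to act on it. The window, chr6:36678464-36678763 on the plus strand, has the GC box GGGCGG in capitals. It held 4 matches over both strands, and 45.0% of all windows held at least 1.

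CDKN1A: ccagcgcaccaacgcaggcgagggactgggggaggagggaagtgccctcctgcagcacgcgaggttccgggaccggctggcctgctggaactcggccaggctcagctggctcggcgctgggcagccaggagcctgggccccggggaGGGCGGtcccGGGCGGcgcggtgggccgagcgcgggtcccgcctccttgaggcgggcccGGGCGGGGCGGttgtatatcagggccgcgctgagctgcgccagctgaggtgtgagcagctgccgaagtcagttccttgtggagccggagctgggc

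Genes of mitosis were higher with ricolinostat almost throughout: of the 34 genes listed, 34 had 1 CPM or more in DMSO, of which 33 were higher and 0 lower with ricolinostat (median log2 fold change 1.22). The member without a call, named after its value was seen, was CDC25C. FOXM1, the transcription factor of the late cell cycle, had 209 and 208 CPM with ricolinostat, 37.8 and 35.0 CPM with panobinostat and 230.4 and 236 CPM in DMSO (2.52 ± 0.05). UBE2C, a ubiquitin carrier of mitotic exit, had 145 and 142 CPM with ricolinostat, 27.5 and 26.3 CPM with panobinostat and 169 and 159 CPM in DMSO (2.42 ± 0.06). The mitotic kinase AURKA had 152 and 153 CPM with ricolinostat, 28.5 and 30.1 CPM with panobinostat and 158 and 166 CPM in DMSO (2.38 ± 0.06). Another, PLK1, had 334 and 328 CPM with ricolinostat, 62.7 and 75.2 CPM with panobinostat and 339 and 340.2 CPM in DMSO (2.26 ± 0.05). In all 4 genes the ricolinostat libraries were close to the DMSO libraries and panobinostat was apart. Scaling by library size alone called 1 member of the list lower.

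For the G1 cyclins, CDKs and E2F factors, of the 19 genes listed, 18 had 1 CPM or more in DMSO, of which 13 were higher and 4 lower with ricolinostat (median log2 fold change 0.63). CDK6, a partner of cyclin D, had 363 and 364 CPM with ricolinostat, 35.4 and 33.0 CPM with panobinostat and 513 and 525 CPM in DMSO (3.41 ± 0.05). E2F2, an activating E2F factor, had 289 and 288 CPM with ricolinostat and 46.3 and 51.3 CPM with panobinostat (2.56 ± 0.05). Its relative E2F3 had 79.8 and 76.4 CPM with ricolinostat and 17.6 and 17.8 CPM with panobinostat (2.14 ± 0.07). Genes of DNA replication and nucleotide synthesis were divided: of the 43 genes listed, 43 had 1 CPM or more in DMSO, of which 28 were higher (65.1%) and 11 lower (25.6%) with ricolinostat (median log2 fold change 0.36). TYMS, which makes thymidylate, had 66.1 and 68.4 CPM with ricolinostat, 5.09 and 5.20 CPM with panobinostat and 104 and 104 CPM in DMSO (3.71 ± 0.08). MCM5, of the replicative helicase, had 379 and 381 CPM with ricolinostat and 99.1 and 97.0 CPM with panobinostat (1.95 ± 0.04). RRM1, of ribonucleotide reductase, and DUT, which removes dUTP, differed less (1.42 ± 0.04 and 1.41 ± 0.06). For ribosome biogenesis, of the 40 genes listed, 40 had 1 CPM or more in DMSO, of which 33 were higher and 6 lower with ricolinostat (median log2 fold change 0.58). The median over all 2626 genes at 100 CPM or more in DMSO was 0.53. UBTF, a factor of RNA polymerase I, had 346 and 343 CPM with ricolinostat, 24.4 and 23.9 CPM with panobinostat and 438 and 423 CPM in DMSO (3.84 ± 0.06). WDR12, of the large subunit pathway, had 415 and 412 CPM with ricolinostat and 58.7 and 56.4 CPM with panobinostat (2.85 ± 0.05). NOP16 and MRTO4, further assembly factors of the large ribosomal subunit, had log2 fold changes of 1.78 ± 0.11 and 1.57 ± 0.07. NOP16 overlaps HIGD2A and MRTO4 overlaps EMC1, each on the opposite strand and with more counts.

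The deacetylase genes themselves differed in both directions. Among HDACs and sirtuins, of the 17 genes listed, 17 had 1 CPM or more in DMSO, of which 6 were higher and 10 lower with ricolinostat (median log2 fold change -0.21). HDAC6 had 81.1 and 82.7 CPM with ricolinostat, 156 and 156 CPM with panobinostat and 70.5 and 67.8 CPM in DMSO. Its ricolinostat libraries were slightly above DMSO and its panobinostat libraries clearly above both (-0.93 ± 0.05, adjusted p = 6.7e-30). HDAC3, the class I enzyme of the NCOR complex, had 32.2 and 33.7 CPM with ricolinostat, 91.7 and 93.3 CPM with panobinostat and 37.8 and 30.7 CPM in DMSO (-1.49 ± 0.07). HDAC1 and HDAC2, the paired class I enzymes, differed in opposite directions. HDAC1 had 216 and 217 CPM with ricolinostat and 249 and 251 CPM with panobinostat (-0.21 ± 0.04). HDAC2 had 163 and 161 CPM with ricolinostat and 92.7 and 95.6 CPM with panobinostat (0.78 ± 0.05). The class IIa genes HDAC7 and HDAC9 had the largest positive log2 fold changes of the list. HDAC7 had 123 and 121 CPM with ricolinostat, 8.30 and 6.85 CPM with panobinostat and 146 and 144 CPM in DMSO (4.02 ± 0.08). HDAC9 had 69.1 and 67.1 CPM with ricolinostat, 5.91 and 7.13 CPM with panobinostat and 41.6 and 47.2 CPM in DMSO (3.37 ± 0.09). SIRT7, a nuclear sirtuin, had 46.3 and 48.5 CPM with ricolinostat and 156 and 147 CPM with panobinostat (-1.68 ± 0.06), and overlaps MAFG on the same strand, so that their reads may be shared.

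For subunits of the HDAC corepressor complexes, of the 28 genes listed, 27 had 1 CPM or more in DMSO, of which 17 were higher (63.0%) and 8 lower (29.6%) with ricolinostat (median log2 fold change 0.43). CHD3, a helicase of the NuRD complex, had 170.2 and 167 CPM with ricolinostat and 14.4 and 14.0 CPM with panobinostat (3.57 ± 0.06). MTA3, of the same complex, had 26.0 and 25.7 CPM with ricolinostat and 2.19 and 2.68 CPM with panobinostat (3.39 ± 0.14). TBL1XR1, of the NCOR complex, had 154 and 155 CPM with ricolinostat and 25.2 and 25.9 CPM with panobinostat (2.59 ± 0.06). RCOR2, a corepressor under 1 CPM in DMSO, had 0.2996 and 0.0907 CPM with ricolinostat and 5.71 and 6.25 CPM with panobinostat (-4.88 ± 0.45). For acetyltransferases and acetyl-lysine readers, of the 24 genes listed, 23 had 1 CPM or more in DMSO, of which 12 were higher (52.2%) and 8 lower (34.8%) with ricolinostat (median log2 fold change 0.25). These shares were near those over all genes at that DMSO level, 47.5% and 32.7%. The count of lower members fell to 5 when either ricolinostat library or panobinostat replicate 2 was left out. HEXIM1, the inhibitor of the elongation factor P-TEFb, had 4.84 and 4.76 CPM with ricolinostat, 30.4 and 29.01 CPM with panobinostat and 5.25 and 4.06 CPM in DMSO (-2.63 ± 0.14). BRD1, a bromodomain protein, had 85.5 and 92.1 CPM with ricolinostat and 15.1 and 15.9 CPM with panobinostat (2.51 ± 0.07), and the acetyltransferases KAT2B and CREBBP log2 fold changes of 2.02 ± 0.08 and 1.41 ± 0.05.

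Among Polycomb and DNA methylation enzymes, of the 22 genes listed, 22 had 1 CPM or more in DMSO, of which 13 were higher (59.1%) and 7 lower (31.8%) with ricolinostat (median log2 fold change 0.19, as over all genes at that DMSO level). Its median is smaller than the shift of scaling by library size. TET1, which oxidizes methylcytosine, had 42.3 and 44.2 CPM with ricolinostat, 1.17 and 0.992 CPM with panobinostat and 30.1 and 30.3 CPM in DMSO (5.33 ± 0.15). Its relative TET3 had 61.7 and 61.7 CPM with ricolinostat and 4.54 and 4.87 CPM with panobinostat (3.71 ± 0.10). PHF19, a subunit of Polycomb complex 2, had 167 and 171 CPM with ricolinostat, 7.47 and 8.87 CPM with panobinostat and 268 and 259 CPM in DMSO (4.36 ± 0.07). The methyltransferase DNMT3A had 28.4 and 28.8 CPM with ricolinostat and 3.91 and 3.76 CPM with panobinostat (2.90 ± 0.13). For polyadenylated and variant histones, of the 17 genes listed, 13 had 1 CPM or more in DMSO, of which 5 were higher and 7 lower with ricolinostat (median log2 fold change -0.23). The linker histone H1-2 had 12.4 and 9.25 CPM with ricolinostat, 55.8 and 60.3 CPM with panobinostat and 11.6 and 9.32 CPM in DMSO (-2.42 ± 0.10). The core histone gene H2BC21 had 7.70 and 9.11 CPM with ricolinostat and 40.0 and 45.04 CPM with panobinostat (-2.34 ± 0.11). H2AC6 and MACROH2A1 were higher (1.39 ± 0.17 and 1.23 ± 0.05).

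Genes of apoptosis differed on both sides. Among anti-apoptotic genes, of the 10 genes listed, 9 had 1 CPM or more in DMSO, of which 6 were higher and 3 lower with ricolinostat (median log2 fold change 1.11). BCL2 had 82.6 and 77.2 CPM with ricolinostat, 4.77 and 5.44 CPM with panobinostat and 95.9 and 101 CPM in DMSO (3.96 ± 0.09), with panobinostat far below both other groups. CFLAR, the inhibitor of caspase 8 activation, had 43.7 and 44.0 CPM with ricolinostat and 3.60 and 4.93 CPM with panobinostat (3.34 ± 0.10). BCL2L2 had 5.82 and 5.85 CPM with ricolinostat and 2.19 and 2.25 CPM with panobinostat (1.39 ± 0.21), and overlaps PPP1R3E on the opposite strand, which had more counts. MCL1, on which myeloma cells depend, differed little, with 568 and 549 CPM with ricolinostat, 662 and 688 CPM with panobinostat and 672 and 665 CPM in DMSO (-0.27 ± 0.04, adjusted p = 4.7e-11). BIRC3, an inhibitor of apoptosis and NF-kB target, had 2.05 and 1.54 CPM with ricolinostat and 14.9 and 15.8 CPM with panobinostat (-3.09 ± 0.20).

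Among pro-apoptotic BCL2 family members and death receptors, of the 20 genes listed, 18 had 1 CPM or more in DMSO, of which 8 were higher and 7 lower with ricolinostat (median log2 fold change -0.16). TNFRSF10B, the TRAIL receptor DR5, had 7.58 and 8.16 CPM with ricolinostat, 261 and 247 CPM with panobinostat and 6.86 and 9.09 CPM in DMSO (-5.01 ± 0.09). BBC3, the BH3-only protein PUMA, had 1.03 and 1.27 CPM with ricolinostat, 20.3 and 21.8 CPM with panobinostat and 0.805 and 1.27 CPM in DMSO (-4.20 ± 0.22). BCL2L11, the BH3-only protein BIM, differed less, with 63.0 and 59.1 CPM with ricolinostat, 83.6 and 94.7 CPM with panobinostat and 58.1 and 57.4 CPM in DMSO (-0.55 ± 0.06, adjusted p = 4.4e-15). For TNFRSF10B and BBC3 the ricolinostat and DMSO libraries overlapped or met, with panobinostat apart. FAS, a death receptor, had 10.1 and 6.89 CPM with ricolinostat and 1.02 and 0.722 CPM with panobinostat (3.31 ± 0.24). BID, which links death receptors to mitochondria, had 19.9 and 18.5 CPM with ricolinostat and 2.70 and 1.89 CPM with panobinostat (3.09 ± 0.15).

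Heat shock genes and chaperones showed no common direction: of the 22 genes listed, 20 had 1 CPM or more in DMSO, of which 7 were higher (35.0%) and 7 lower (35.0%) with ricolinostat (median log2 fold change 0.00), and scaling by library size alone gave 11 lower. DNAJB1, a cochaperone of the heat shock response, had 71.0 and 75.9 CPM with ricolinostat, 871 and 889 CPM with panobinostat and 96.3 and 94.0 CPM in DMSO (-3.58 ± 0.05). HSPA1B (ENSG00000204388, chr6:31827735-31830255), the inducible HSP70, had 5.86 and 6.53 CPM with ricolinostat, 38.5 and 41.6 CPM with panobinostat and 6.01 and 6.04 CPM in DMSO. Its ricolinostat libraries matched DMSO closely and its panobinostat libraries were well above (-2.70 ± 0.10, adjusted p = 1.3e-46). HSPA1A had 0.728 and 0.861 CPM with ricolinostat and 3.99 and 4.30 CPM with panobinostat (-2.38 ± 0.27). With 0.720 and 0.596 CPM in DMSO, it is not among the 20. The coding sequences of HSPA1A and HSPA1B are nearly identical, so their counts are uncertain singly. HSPE1, a mitochondrial chaperonin that overlaps the abundant HSPD1, had 36.5 and 37.1 CPM with ricolinostat and 12.9 and 11.4 CPM with panobinostat (1.61 ± 0.09). BAG1, a cochaperone of HSP70, had 139 and 141 CPM with ricolinostat and 52.6 and 49.1 CPM with panobinostat (1.47 ± 0.05). TXNIP, an arrestin-like regulator of glucose uptake, had 314 and 300.4 CPM with ricolinostat, 731 and 737 CPM with panobinostat and 186 and 168 CPM in DMSO (-1.26 ± 0.04). The promoter window of HSPA1B, chr6:31827488-31827787 on the plus strand, is shown for its heat shock element (GAANNTTC, both strands), in capitals. It held 1 match, and 6.77% of all windows held at least 1.

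HSPA1B: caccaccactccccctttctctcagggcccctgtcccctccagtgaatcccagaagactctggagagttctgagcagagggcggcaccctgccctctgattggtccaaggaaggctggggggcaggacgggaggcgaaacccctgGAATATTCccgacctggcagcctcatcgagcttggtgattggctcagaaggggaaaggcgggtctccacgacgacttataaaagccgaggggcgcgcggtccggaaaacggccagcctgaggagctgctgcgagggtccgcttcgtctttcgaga

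For the unfolded protein response and folding in the endoplasmic reticulum, of the 28 genes listed, 27 had 1 CPM or more in DMSO, of which 11 were higher and 13 lower with ricolinostat (median log2 fold change -0.10). CRELD2 had 33.0 and 41.1 CPM with ricolinostat, 143 and 146 CPM with panobinostat and 54.2 and 54.1 CPM in DMSO (-1.97 ± 0.07). The oxidases ERO1A and ERO1B, which form disulfide bonds, differed in opposite directions. ERO1A had 95.8 and 92.8 CPM with ricolinostat and 23.7 and 24.9 CPM with panobinostat (1.95 ± 0.06). ERO1B, under 1 CPM in DMSO and not among the 27, had 0.342 and 1.09 CPM with ricolinostat and 13.5 and 12.8 CPM with panobinostat (-4.21 ± 0.27). EIF2AK3, the stress sensor PERK, had 280.2 and 255 CPM with ricolinostat and 77.1 and 70.9 CPM with panobinostat (1.86 ± 0.05). In the integrated stress response, of the 28 genes listed, 25 had 1 CPM or more in DMSO, of which 13 were higher and 10 lower with ricolinostat (median log2 fold change 0.33). The transcription factor ATF3 had 7.19 and 7.62 CPM with ricolinostat and 111 and 104 CPM with panobinostat (-3.86 ± 0.10). DDIT3, the factor CHOP, had 5.14 and 5.03 CPM with ricolinostat and 53.9 and 52.1 CPM with panobinostat (-3.38 ± 0.12) and overlaps the abundant MARS1 on the opposite strand. SLC7A11, the cystine transporter, had 13.7 and 13.0 CPM with ricolinostat, 3.13 and 3.64 CPM with panobinostat and 26.7 and 26.3 CPM in DMSO (1.96 ± 0.15). CHAC1, which breaks down glutathione, had 4.11 and 3.22 CPM with ricolinostat, 16.4 and 16.2 CPM with panobinostat and 7.07 and 7.79 CPM in DMSO (-2.15 ± 0.17), with both ricolinostat libraries below those of the other groups.

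For the proteasome, the target of bortezomib, of the 31 genes listed, 31 had 1 CPM or more in DMSO, of which 18 were higher (58.1%) and 7 lower (22.6%) with ricolinostat (median log2 fold change 0.30), and scaling by library size alone gave 11 lower. PSMB5, the catalytic subunit that bortezomib binds, had 60.1 and 63.5 CPM with ricolinostat, 22.5 and 21.5 CPM with panobinostat and 75.2 and 74.3 CPM in DMSO (1.49 ± 0.07). PSMD7, of the regulatory particle, had 134 and 134 CPM with ricolinostat and 40.3 and 40.9 CPM with panobinostat (1.72 ± 0.05). PSMD11 and PSMA1 had log2 fold changes of 1.30 ± 0.05 and 1.30 ± 0.10. For autophagy and lysosomes, of the 33 genes listed, 30 had 1 CPM or more in DMSO, of which 10 were higher and 14 lower with ricolinostat (median log2 fold change -0.09), and scaling by library size alone gave 6 higher. NEU1, the lysosomal sialidase, had 89.5 and 86.1 CPM with ricolinostat, 1217 and 1215 CPM with panobinostat and 74.2 and 76.9 CPM in DMSO (-3.79 ± 0.05), with panobinostat far above the other groups. ULK1, the kinase that starts autophagy, had 56.2 and 54.0 CPM with ricolinostat and 177 and 174 CPM with panobinostat (-1.67 ± 0.06). MCOLN1, a lysosomal calcium channel that overlaps PNPLA6 on the same strand, had 29.3 and 30.9 CPM with ricolinostat and 123 and 121 CPM with panobinostat (-2.02 ± 0.08). TFEB, a master factor of lysosomal genes, had 23.5 and 22.9 CPM with ricolinostat and 7.63 and 8.99 CPM with panobinostat (1.47 ± 0.11).

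Genes of MHC class I presentation were higher with ricolinostat: of the 21 genes listed, 19 had 1 CPM or more in DMSO, of which 17 were higher and 2 lower with ricolinostat (median log2 fold change 1.49), and the count of lower members fell to 1 when any of the 4 libraries was left out. PSMB10, a subunit of the immunoproteasome, had 22.8 and 26.1 CPM with ricolinostat, 0.900 and 0.842 CPM with panobinostat and 37.7 and 39.2 CPM in DMSO (4.81 ± 0.15). ERAP2, which trims peptides, had 23.5 and 21.6 CPM with ricolinostat and 1.80 and 1.98 CPM with panobinostat (3.57 ± 0.15). MICB, a stress ligand of natural killer cells, had 31.7 and 28.9 CPM with ricolinostat and 2.86 and 3.28 CPM with panobinostat (3.29 ± 0.12). ULBP1, another such ligand and under 1 CPM in DMSO, had 0.599 and 0.680 CPM with ricolinostat and 5.60 and 8.09 CPM with panobinostat (-3.42 ± 0.35). Of the 13 MHC class II genes only 5 had 1 CPM or more in DMSO, of which 2 were higher and 3 lower with ricolinostat (median log2 fold change -0.31). HLA-DPA1 had 1.28 and 1.86 CPM with ricolinostat and 7.47 and 7.55 CPM with panobinostat (-2.26 ± 0.26). CIITA, the class II transactivator, had 20.5 and 19.2 CPM with ricolinostat and 13.9 and 10.5 CPM with panobinostat (0.72 ± 0.11). HLA-DRA had 22.2 and 23.4 CPM with ricolinostat and 28.997 and 27.8 CPM with panobinostat (-0.31 ± 0.09, adjusted p = 0.0011). By the same edgeR test its adjusted p was 0.074 without ricolinostat replicate 1 and 0.058 without panobinostat replicate 1. Leaving out either of these libraries gave 1 lower class II member.

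Among interferon-stimulated genes, 26 of 32 passed the filter on low counts and 13 had 1 CPM or more in DMSO, of which 4 were higher and 7 lower with ricolinostat (median log2 fold change -0.74). OASL, of the oligoadenylate synthetase family, had 3.68 and 3.58 CPM with ricolinostat, 63.0 and 61.5 CPM with panobinostat and 1.78 and 1.57 CPM in DMSO (-4.10 ± 0.12). ISG15, a ubiquitin-like modifier, had 3.21 and 3.36 CPM with ricolinostat, 29.9 and 28.8 CPM with panobinostat and 2.71 and 2.80 CPM in DMSO (-3.16 ± 0.17). IFI6, another interferon target, had 4.11 and 2.22 CPM with ricolinostat and 34.7 and 36.5 CPM with panobinostat (-3.48 ± 0.18). DHX58, an RNA sensor under 1 CPM in DMSO, had 0.685 and 0.272 CPM with ricolinostat and 8.92 and 8.33 CPM with panobinostat (-4.14 ± 0.37). For OASL the ricolinostat libraries stood between DMSO and panobinostat. The count of higher members was 2 with DESeq2 and with scaling by library size alone.

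For NF-kB targets and feedback genes, of the 22 genes listed, 13 had 1 CPM or more in DMSO, of which 5 were higher and 8 lower with ricolinostat (median log2 fold change -0.64). CCL3, a chemokine, had 28.2 and 23.4 CPM with ricolinostat, 0.900 and 0.902 CPM with panobinostat and 6.73 and 7.23 CPM in DMSO (4.83 ± 0.20), highest with ricolinostat and lowest with panobinostat. NFKB1, a subunit of NF-kB, had 51.7 and 49.8 CPM with ricolinostat and 6.46 and 5.23 CPM with panobinostat (3.13 ± 0.09). IER3, an early response gene, had 1.20 and 0.816 CPM with ricolinostat and 63.0 and 63.7 CPM with panobinostat (-5.96 ± 0.17). It was under 1 CPM in DMSO and is not among the 13. Immediate-early genes, which signalling induces within minutes, were mostly lower: of the 32 genes listed, 24 had 1 CPM or more in DMSO, of which 6 were higher and 18 lower with ricolinostat (median log2 fold change -2.09). EGR1, an early growth response factor, had 1.07 and 0.952 CPM with ricolinostat, 43.5 and 42.0 CPM with panobinostat and 0.847 and 0.559 CPM in DMSO (-5.39 ± 0.22). Being under 1 CPM in DMSO, it is not among the 24. KLF2, a Kruppel-like factor, had 42.6 and 41.7 CPM with ricolinostat, 784 and 836 CPM with panobinostat and 77.3 and 76.1 CPM in DMSO (-4.26 ± 0.05). NR4A2, an orphan nuclear receptor, had 2.65 and 3.22 CPM with ricolinostat and 49.2 and 48.3 CPM with panobinostat (-4.05 ± 0.13). In all 3 the panobinostat libraries were far above the ricolinostat libraries.

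Among genes of sterol and fatty acid synthesis, of the 31 genes listed, 30 had 1 CPM or more in DMSO, of which 8 were higher and 20 lower with ricolinostat (median log2 fold change -0.71). INSIG1, the sterol-regulated retention protein of the endoplasmic reticulum, had 137 and 133 CPM with ricolinostat, 2452 and 2427 CPM with panobinostat and 199 and 217 CPM in DMSO. Ricolinostat libraries were below DMSO and panobinostat libraries far above it, a log2 fold change of -4.18 ± 0.04 (adjusted p = 2.7e-93). IDI1, of the mevalonate pathway, had 57.1 and 53.8 CPM with ricolinostat and 534 and 551 CPM with panobinostat (-3.29 ± 0.05). HMGCS1, of the same pathway, had 36.1 and 39.7 CPM with ricolinostat and 144 and 152 CPM with panobinostat (-1.97 ± 0.06). ELOVL6, which lengthens fatty acids, had 52.9 and 57.1 CPM with ricolinostat and 10.6 and 12.2 CPM with panobinostat (2.26 ± 0.08).

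For nuclear genes of oxidative phosphorylation, of the 41 genes listed, 41 had 1 CPM or more in DMSO, of which 32 were higher and 5 lower with ricolinostat (median log2 fold change 0.59), with 9 lower under scaling by library size. The list summed to 8713 and 8696 CPM in DMSO, and the median over all 2626 genes at 100 CPM or more in DMSO was 0.53. UQCRFS1, the Rieske subunit of complex III, had 185 and 188 CPM with ricolinostat and 58.4 and 63.2 CPM with panobinostat (1.61 ± 0.05). NDUFA6 and NDUFS8, of complex I, and CYC1, of complex III, had log2 fold changes of 1.58 ± 0.07, 1.36 ± 0.07 and 1.36 ± 0.05. The 13 mitochondrially encoded mRNAs did not follow them, with 0 higher and 4 lower at a median of -0.12. These 4 were MT-ND1, MT-CO1, MT-ND5 and MT-ND6, with log2 fold changes of -0.30 ± 0.08, -0.25 ± 0.08, -0.22 ± 0.07 and -0.22 ± 0.08 and adjusted p of 0.0086, 0.015, 0.023 and 0.036. None of the 4 kept its call without ricolinostat replicate 1 or without panobinostat replicate 1, and 2 were called without ricolinostat replicate 2. Scaling by library size gave 12 lower. DESeq2, its size factors, a minimum count of 30 and a fit of the compared groups alone each gave 7, and a fit without robust estimation 8. Cytosolic ribosomal proteins differed by small steps: of the 40 genes listed, 40 had 1 CPM or more in DMSO, of which 33 were higher and 4 lower with ricolinostat (median log2 fold change 0.30), none by 2-fold or more. The lower count was 2 with no filter on low counts and when either ricolinostat library or panobinostat replicate 2 was left out, and 8 under scaling by library size. RPL10, RPS4X and RPL30 had log2 fold changes of 0.55 ± 0.04, 0.53 ± 0.04 and 0.47 ± 0.05. Of the most abundant genes, the translation elongation factors differed in opposite directions. EEF1A1 had 10428 and 10487 CPM with ricolinostat and 6914 and 7204 CPM with panobinostat (0.57 ± 0.03). EEF2 had 3604 and 3493 CPM with ricolinostat and 5193 and 5454 CPM with panobinostat (-0.59 ± 0.03).

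**Figure D3:**
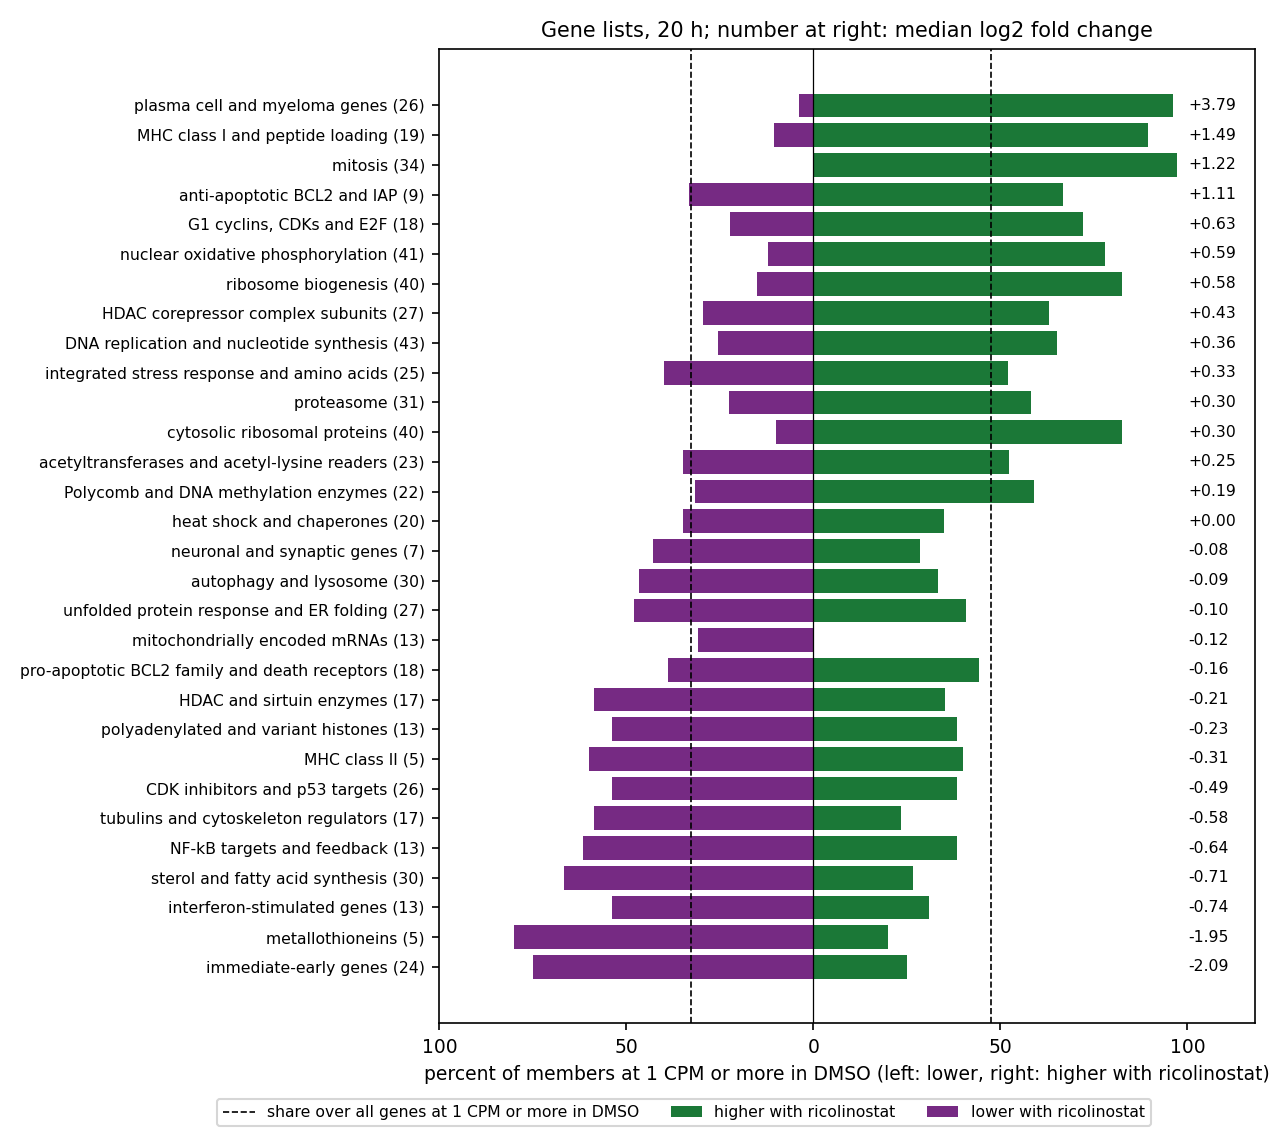
Percent of the members of each gene list called higher (green, to the right) or lower (purple, to the left) with ricolinostat than with panobinostat at 20 h, for lists with 5 or more members at 1 CPM or more in DMSO (number of such members in brackets), with the median log2 fold change at the right. The dashed lines mark the shares over all 12846 genes at that DMSO level, 47.5% higher and 32.7% lower. Lists of cell type markers, the 10 plasma cell markers among them, are not drawn. Of the lists drawn, plasma cell and myeloma genes have the highest median (3.79) and immediate-early genes the lowest (-2.09).

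Of the 20957 genes, 6539 were not called, which does not show that the treatments act alike on them. For 2156 of these the 95% interval of the fold change lay within 2-fold either way, and for 1451 within 1.5-fold. Of the genes named by rule, EPOR, the erythropoietin receptor, had 23.8 and 20.9 CPM with ricolinostat and 23.5 and 27.6 CPM with panobinostat (-0.20 ± 0.10, adjusted p = 0.072), with an interval from -0.39 to 0.00 on the log2 scale. It was called lower with DESeq2 (adjusted p = 0.038), with either other scaling and with a minimum count of 30. MT-ND4 had 6723 and 7322 CPM with ricolinostat and 7858 and 7105 CPM with panobinostat (-0.09 ± 0.08, adjusted p = 0.37), with an interval from -0.28 to 0.10. MT-CO3 was called lower under 6 alternatives. Its interval ran from -0.32 to 0.03, with 4428 and 4529.8 CPM with ricolinostat and 4910.1 and 5003 CPM with panobinostat (adjusted p = 0.13). The groups overlapped for EPOR and MT-ND4 and not for MT-CO3.

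Markers of other cell types were looked at beside these differences. Summed over tested members, the myeloid list (3 of 13 tested) had 0.642 and 0.725 CPM with ricolinostat, 7.40 and 7.43 CPM with panobinostat and 0.508 and 0.671 CPM in DMSO. CSF1R led it with 0.0428 and 0.136 CPM with ricolinostat and 4.93 and 5.38 CPM with panobinostat, though it overlaps the abundant pseudogene RPL7P1, while S100A8, S100A9, MPO and AIF1 had 0 counts in all 4 libraries. The stromal and endothelial list (5 of 12) had 4.24 and 2.63 CPM with ricolinostat, 38.3 and 37.0 CPM with panobinostat and 5.67 and 5.22 CPM in DMSO. COL1A1, a collagen of fibroblasts, made up most of this with 0.257 and 0.0907 CPM with ricolinostat and 34.8 and 33.5 CPM with panobinostat (-7.56 ± 0.29), and COL3A1, LUM and KDR had 0 counts. The T and NK cell list (3 of 15) had 1.46 and 1.86 CPM with ricolinostat, 2.94 and 2.98 CPM with panobinostat and 0.635 and 0.783 CPM in DMSO, and CD8B had 0 counts. The epithelial list (2 of 11) had 1.07 and 0.589 CPM with ricolinostat, 5.28 and 5.35 CPM with panobinostat and 0.932 and 0.596 CPM in DMSO, and KRT5 and CDH1 had 0 counts.

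The early B cell list (6 of 12) had 45.1 and 40.1 CPM with ricolinostat, 62.1 and 63.0 CPM with panobinostat and 29.6 and 31.6 CPM in DMSO, and MS4A1, CD24 and RAG2 had 0 counts. BCL6, the factor of germinal centre B cells, had 2.40 and 1.81 CPM with ricolinostat, 25.01 and 25.7 CPM with panobinostat and 2.29 and 2.05 CPM in DMSO (-3.58 ± 0.17). BACH2, which opposes plasma cell differentiation, had 40.3 and 36.0 CPM with ricolinostat, 15.3 and 17.6 CPM with panobinostat and 26.1 and 29.1 CPM in DMSO (1.21 ± 0.09). The erythroid list (6 of 12) had 329 and 323 CPM with ricolinostat, 623 and 644 CPM with panobinostat and 347 and 372 CPM in DMSO, nearly all of it TFRC, the transferrin receptor of dividing cells, with 303 and 299.6 CPM with ricolinostat and 595 and 612 CPM with panobinostat. HBA2 had 0 counts. The part of these markers in the other differences was not tested.

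The difference between the treatments was present at 2 h and grew with time. At 2 h, 2063 genes were higher (9.84%) and 1952 lower (9.31%) with ricolinostat than with panobinostat, at 5 h 4932 (23.5%) and 4921 (23.5%), and at 20 h 6714 (32.0%) and 7704 (36.8%). These 3 comparisons use different libraries. In a test of the change itself, 4821 genes had a more positive difference at 20 h than at 5 h (23.0%) and 3852 a more negative one (18.4%). Against 2 h the counts were 5682 (27.1%) and 4724 (22.5%). The plasma cell and myeloma list had median log2 fold changes of 0.31, 0.93 and 3.79 at 2, 5 and 20 h, and 25 of its 26 members had a more positive difference at 20 h than at 5 h. Over all genes at 1 CPM or more in DMSO that share was 35.0%.

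The treatments parted at different times for different members of this list. MYC had 216 and 204 CPM with ricolinostat against 61.6 and 57.7 CPM with panobinostat at 2 h, 344 and 335 against 37.4 and 35.3 CPM at 5 h, and 386 and 378 against 8.80 and 10.3 CPM at 20 h. It was already separated at 2 h (1.82 ± 0.05) and the difference at 20 h exceeded that at 2 h by 3.50 ± 0.08 (adjusted p = 5.2e-63). PRDM1 had 429 and 439 CPM with ricolinostat against 154 and 155 CPM with panobinostat at 2 h, 449.8 and 456 against 71.4 and 61.5 CPM at 5 h, and 441 and 435 against 8.22 and 9.14 CPM at 20 h, likewise apart from 2 h on (1.49 ± 0.04). IRF4 had 1518 and 1483 CPM with ricolinostat against 1459 and 1472 CPM with panobinostat at 2 h, 1247 and 1268 against 873 and 856 CPM at 5 h, and 1088 and 1096 against 316 and 320.3 CPM at 20 h. It was not called at 2 h (0.03 ± 0.03, adjusted p = 0.59) and was called at 5 h (0.54 ± 0.03). TNFRSF17 had 175 and 185 CPM with ricolinostat against 153 and 141 CPM with panobinostat at 2 h, 180.1 and 156 against 43.1 and 43.1 CPM at 5 h, and 225 and 226 against 0.861 and 1.17 CPM at 20 h, a small difference at 2 h (0.29 ± 0.05) and a change of 7.47 ± 0.11 by 20 h.

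Among other genes, CDKN1A had 50.3 and 47.9 CPM with ricolinostat against 98.5 and 103 CPM with panobinostat at 2 h, 47.8 and 55.2 against 121 and 123 CPM at 5 h, and 85.6 and 87.3 against 309.8 and 320.5 CPM at 20 h, apart at all 3 times. MT2A had 4.55 and 5.60 CPM with ricolinostat against 53.9 and 57.6 CPM with panobinostat at 2 h, 4.73 and 7.82 against 180.1 and 148 CPM at 5 h, and 5.56 and 5.71 against 845 and 836 CPM at 20 h, with the panobinostat libraries highest at 20 h. HSPA1B had 64.8 and 68.8 CPM with ricolinostat against 194 and 196 CPM with panobinostat at 2 h, 41.7 and 52.5 against 139 and 145 CPM at 5 h, and 5.86 and 6.53 against 38.5 and 41.6 CPM at 20 h. Its levels were higher at 2 h than at 20 h in both treatments. The log2 fold change became more negative, by -1.15 ± 0.12 (adjusted p = 8.3e-15), while the gap in CPM became smaller. HDAC6 had 52.1 and 49.8 CPM with ricolinostat against 52.5 and 52.5 CPM with panobinostat at 2 h, 48.2 and 50.1 against 54.6 and 54.5 CPM at 5 h, and 81.1 and 82.7 against 156 and 156 CPM at 20 h. It was not called at 2 h (adjusted p = 0.73). GPR171 had 4.11 and 4.29 CPM with ricolinostat against 4.48 and 4.37 CPM with panobinostat at 2 h, 4.27 and 4.40 against 3.59 and 3.88 CPM at 5 h, and 24.1 and 20.0 against 0.0783 and 0.120 CPM at 20 h, so the treatments lay within 1 CPM of each other at 2 and 5 h and apart at 20 h. The cytosolic ribosomal proteins had a median of -0.11 at 2 h, 0.03 at 5 h and 0.30 at 20 h.

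**Figure D4:**
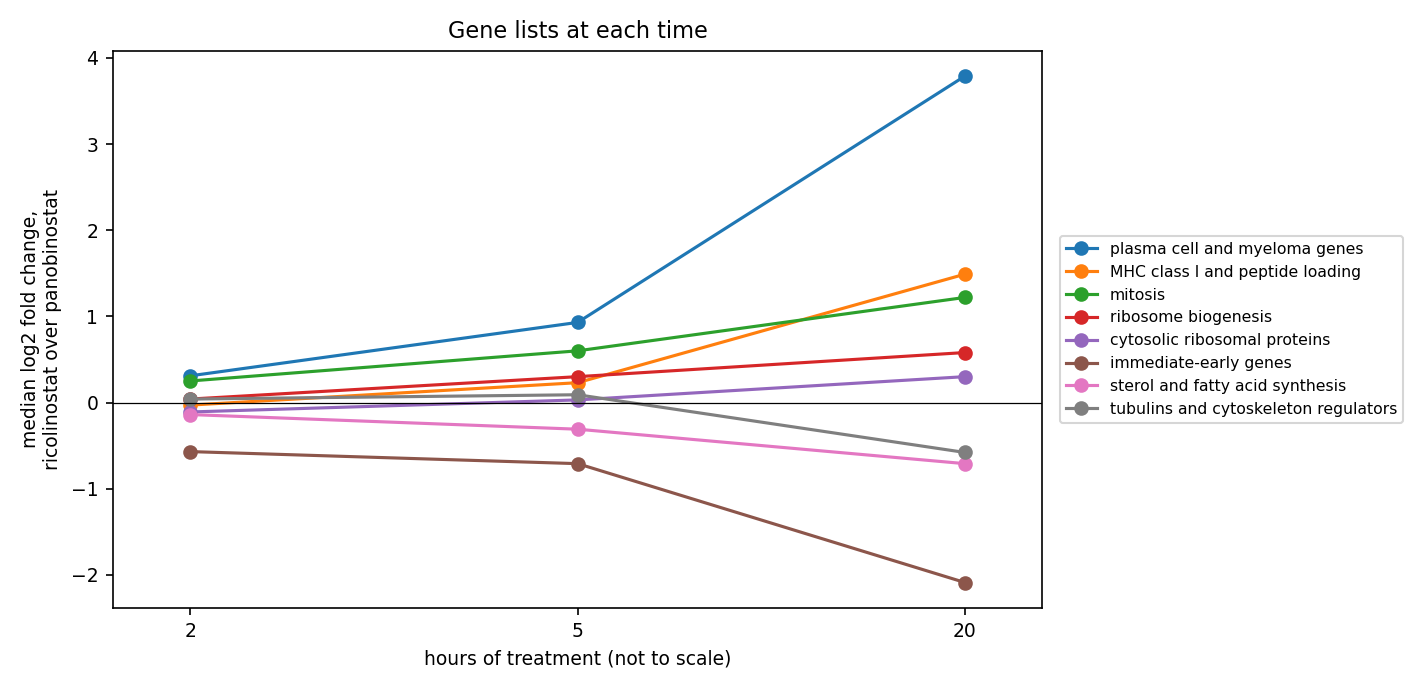
Median log2 fold change of ricolinostat over panobinostat at 2, 5 and 20 h (axis not to scale) over the members of 8 gene lists at 1 CPM or more in DMSO. Each line is a list. The plasma cell and myeloma list runs from 0.31 at 2 h to 3.79 at 20 h, and the immediate-early list from -0.57 to -2.09.

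Beside DMSO, with which both comparisons share the same 2 libraries, the treatments differed in extent. With ricolinostat 3082 genes were higher than in DMSO (14.7%) and 3432 lower (16.4%), of which 984 (4.7% of all genes) and 122 (0.582%) by 2-fold or more. Scaling by library size alone gave 4389 higher and 2242 lower, so that more genes were higher than lower. With panobinostat 8560 were higher (40.8%) and 6769 lower (32.3%), of which 6183 (29.5%) and 3739 (17.8%) by 2-fold or more. The quartiles of the log2 fold change from DMSO were -0.22 and 0.49 for ricolinostat and -0.73 and 1.59 for panobinostat. For the plasma cell list the median was -0.21 with ricolinostat and -3.82 with panobinostat, with 17 and 25 of 26 members lower than in DMSO. Over all genes at 1 CPM or more in DMSO, 26.4% were lower and 18.8% higher with ricolinostat, and 49.1% lower and 33.9% higher with panobinostat. For mitosis it was -0.04 and -1.25, and for immediate-early genes 0.17 and 2.22. For ribosome biogenesis it was -0.51 and -1.04, with 37 and 36 of 40 members lower than in DMSO. GSN rose in both treatments, by 2.57 ± 0.17 with ricolinostat and 5.25 ± 0.14 with panobinostat, and CDKN1A by 0.66 ± 0.05 and 2.52 ± 0.05. INSIG1 fell with ricolinostat (-0.63 ± 0.04) and rose with panobinostat (3.55 ± 0.04).

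Romidepsin at 20 h was set beside the 2 hydroxamic acids. Ricolinostat against romidepsin gave 6108 genes higher (29.1%) and 6930 lower (33.1%), while romidepsin against panobinostat gave 4907 higher (23.4%) and 3835 lower (18.3%). These comparisons share libraries with the main one. MYC had 386 and 378 CPM with ricolinostat, 8.80 and 10.3 CPM with panobinostat and 24.6 and 23.5 CPM with romidepsin. TNFRSF17 had 225 and 226, 0.861 and 1.17 and 6.50 and 5.86 CPM in the same order, so romidepsin lay between the others and nearer to panobinostat. CDKN1A had 85.6 and 87.3 CPM with ricolinostat, 309.8 and 320.5 CPM with panobinostat and 558 and 569.6 CPM with romidepsin, the highest of the 3. PRDM1 had 441 and 435 CPM with ricolinostat, 8.22 and 9.14 CPM with panobinostat and 79.6 and 82.1 CPM with romidepsin, and GPR171 24.1 and 20.0, 0.0783 and 0.120 and 7.05 and 6.60 CPM, with romidepsin in between for both genes.

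The direction of the difference varied with the level and kind of gene. Of the 2626 genes at 100 CPM or more in DMSO, 847 were higher by 2-fold or more with ricolinostat and 96 lower, with a median log2 fold change of 0.53. The list medians for nuclear oxidative phosphorylation (0.59) and ribosome biogenesis (0.58) were close to it. Those for cytosolic ribosomal proteins and the proteasome (0.30 each) were below it. Of the 4698 genes from 20 to 100 CPM, 958 were higher and 410 lower (median 0.20), and of the 2990 genes from 1 to 5 CPM, 673 and 744 (median -0.12). Of the 2532 genes from 5 to 20 CPM, 533 were higher and 418 lower (median -0.01). From 0.1 to 1 CPM, where some genes could pass the filter through another group alone, 585 of 5619 were higher and 1701 lower by 2-fold or more, and 3271 were not called. Genes under 0.1 CPM are left out here. Of the 13609 protein-coding genes tested, 5281 were higher and 5568 lower, and 549 had at least 1 CPM in both panobinostat libraries while under 0.5 CPM with ricolinostat and in DMSO. Among protein-coding genes at 1 CPM or more in DMSO, those on chromosome 19 had 270 higher and 344 lower of 758 (median -0.10), the lowest median of the nuclear chromosomes analysed. Those on the X chromosome had 234 higher and 85 lower of 379 (median 0.51), the highest.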

How the data were processed

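RNA of OPM2 cells was read as paired ends of poly(A)-selected, strand-specific libraries on an Illumina HiSeq instrument. The authors deposited 1 table of raw read counts per gene for 20 libraries, in 78932 identifiers. HISAT2, SAMtools, featureCounts and GRCh38 are named in the submitters' processing notes. Neither their versions nor the strand setting nor the treatment of shared reads was stated in the sources used here.

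Counts were tested with edgeR 4.0.16 in R 4.3.3 (limma 3.58.1): filterByExpr with a minimum count of 10, TMM scaling and a robust quasi-likelihood fit over all 20 libraries in 10 groups. Benjamini-Hochberg adjustment ran over the 20957 genes kept, with a threshold of 0.05 on 2-sided tests. The common dispersion was 0.00175. CPM values are counts scaled by TMM library sizes, a standard error is the log2 fold change over the root of its F value, and n is 2 libraries per group throughout. For genes with few counts in a group, such a standard error can be below the counting error. The p-values rest on the spread between replicate libraries, pooled over all 10 groups and moderated over genes (median of 96.99 degrees of freedom). They are not based on the 4 compared libraries alone. The same code was tested on simulated data. Alternatives were DESeq2 1.42.0, other scalings, other count minimums, a fit of the compared groups only, a replicate block, a fit without robust estimation, and leaving out each library.

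Named genes are a fixed panel, the 12 largest rises and falls among protein-coding genes and 3 among long non-coding RNAs (5 CPM or more in a group, libraries that do not overlap), up to 4 members per list, 5 per time interaction and direction, and the most abundant genes. The members and lists were chosen with earlier results of these data known. The limit of 1 CPM in DMSO for list counts and the metal response and heat shock motifs were chosen after seeing the data. Names and positions come from GENCODE 29 on GRCh38, promoter windows from RefSeq on GRCh38.p14. Some genes that these rules select are not reported here.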

Additional observations from a re-analysis of the deposited data

Results flagged for a closer look

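The difference between ricolinostat and panobinostat at 20 h differed from that at an earlier time for many genes, by edgeR's interaction test with adjustment over all genes. Against 5 h, 4821 genes had a more positive and 3852 a more negative difference at 20 h, and against 2 h the counts were 5682 and 4724. CTHRC1 had 194 and 161 CPM with ricolinostat and 83.1 and 85.9 CPM with panobinostat at 5 h, against 305 and 299.9 CPM with ricolinostat and 1.02 and 1.74 CPM with panobinostat at 20 h (log2 change of the difference 6.65 ± 0.14, adjusted p = 3.8e-27). GPR171, described above, changed by 7.48 ± 0.39, adjusted p = 2.4e-33 against 5 h and by 7.76 ± 0.37, adjusted p = 4.8e-36 against 2 h. ANO4, a membrane protein of the anoctamin family, had 14.7 and 12.5 CPM with ricolinostat and 12.2 and 13.6 CPM with panobinostat at 5 h, against 52.6 and 47.3 CPM with ricolinostat and 0.704 and 0.210 CPM with panobinostat at 20 h (6.78 ± 0.25, adjusted p = 1.9e-42). TASL had 39.2 and 41.5 CPM with ricolinostat and 13.9 and 13.2 CPM with panobinostat at 2 h, against 54.0 and 55.7 CPM with ricolinostat and 0.0783 and 0.0601 CPM with panobinostat at 20 h (7.97 ± 0.27, adjusted p = 7.4e-48). WDR72 had 98.3 and 96.4 CPM with ricolinostat and 84.4 and 87.1 CPM with panobinostat at 2 h, against 139.7 and 131 CPM with ricolinostat and 0.430 and 0.601 CPM with panobinostat at 20 h (7.81 ± 0.14, adjusted p = 9.7e-72). In all of these 5 genes the treatments lay much closer together at the earlier time.

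For the following genes a group held 0 to 3 counts, so the size of the change is not given. TRIM71 had 0.769 and 0.515 CPM with ricolinostat and 0.684 and 1.07 CPM with panobinostat at 5 h, against 8.26 and 7.71 CPM with ricolinostat and 0.0783 and 0 CPM with panobinostat at 20 h, with an adjusted p of 9.2e-17 by edgeR against 5 h and 2.9e-20 against 2 h. CCR2 had 7.30 and 8.10 CPM with ricolinostat and 3.25 and 3.87 CPM with panobinostat at 2 h (adjusted p = 2.0e-31). FCMR, a receptor for immunoglobulin M, had 4.46 and 4.26 CPM with ricolinostat and 4.10 and 3.30 CPM with panobinostat at 5 h, against 5.22 and 4.85 CPM with ricolinostat and 0 and 0.0601 CPM with panobinostat at 20 h (adjusted p = 1.3e-19). In these 3 genes panobinostat approached 0 counts by 20 h and ricolinostat did not.

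In the remaining genes the panobinostat libraries were highest at 20 h. CDH15 had 0.385 and 0.0936 CPM with ricolinostat and 8.94 and 10.1 CPM with panobinostat at 5 h, with an adjusted p of 1.3e-05 by edgeR against 5 h and 7.8e-14 against 2 h. MMP17 had 0.423 and 0.187 CPM with ricolinostat and 12.1 and 11.2 CPM with panobinostat at 5 h (adjusted p = 3.1e-06). CEACAM20 had 0.0769 and 0 CPM with ricolinostat and 1.25 and 0.949 CPM with panobinostat at 5 h (adjusted p = 0.0025), SLC2A3 0 and 0.0936 CPM with ricolinostat and 0.171 and 0.413 CPM with panobinostat at 5 h (adjusted p = 0.0023). C3, the complement factor, which overlaps the abundant GPR108 on the same strand, had 0 and 0.281 CPM with ricolinostat and 0.171 and 0.289 CPM with panobinostat at 5 h, against 0 and 0.0453 CPM with ricolinostat and 6.57 and 6.73 CPM with panobinostat at 20 h (adjusted p = 2.2e-05). Against 2 h, BAIAP2, TP63, XIRP1 and SEC14L5 had 0 counts in both panobinostat libraries at 2 h and, at 20 h, 47.9 and 51.4, 33.4 and 31.0, 9.94 and 8.57 and 11.04 and 9.08 CPM. Their adjusted p by edgeR were 4.2e-06, 1.8e-09, 3.5e-05 and 9.2e-06, in the same order. BAIAP2 and TP63 also had 0 counts with ricolinostat at 20 h. With ricolinostat at 2 h they had 0 and 0.0794 and 0 and 0.159 CPM, so their adjusted p depends on those few reads. NDST4, DNAAF3 and NLRP2, with 0 counts in both treatments at 2 h, were not called by this test. These calls therefore do not set such genes apart from the others at 0 counts.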

How the results depend on the processing

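Of 177 named genes, 0 changed direction under the 12 alternatives run. A call was lost by 6 (TM4SF18-AS1 with DESeq2, and HLA-DRA, MT-ND1, MT-CO1, MT-ND5 and MT-ND6 without panobinostat replicate 1 or ricolinostat replicate 1, and for MT-CO1 and MT-ND6 also without ricolinostat replicate 2) and gained by 3 (EPOR, MT-ND4 and MT-CO3). Without those libraries the log2 fold changes were -0.22 for HLA-DRA, -0.18 for MT-ND1, -0.14 to -0.22 for MT-CO1, -0.10 to -0.11 for MT-ND5 and -0.09 to -0.21 for MT-ND6. The count of genes higher was 5701 to 6762 and of genes lower 6427 to 9001 over all alternatives, with 6421 to 6650 and 6427 to 6942 when 1 library was left out. By 2-fold or more, leaving out a library gave 3547 to 3710 genes higher and 4325 to 4719 lower. Scaling by library size alone gave 5701 higher and 9001 lower, and took the count of genes lower with ricolinostat than in DMSO to 2242, against 3432 with TMM, and of genes higher to 4389, against 3082; the cause was not tested. The other 207 alternative counts stayed within 1.5 times of their own. Of 74 counts over gene lists, 14 moved by more than 1.5 times under some alternative. DESeq2 called 6134 higher and 7186 lower. With the replicate number as a block, 6679 genes were higher and 7593 lower. The numbers did not pair the samples: of 45 pairs of groups, 0 had a correlation of same-numbered deviations over 0.1. With 2 libraries per group, small differences of low genes are limited by depth.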

Other observations

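Some genes were higher with ricolinostat than with both panobinostat and DMSO, a selection made after the values were seen. GCNT3, a mucin-type glycosyltransferase, had 9.67 and 9.39 CPM with ricolinostat, 1.13 and 1.26 CPM with panobinostat and 1.65 and 1.60 CPM in DMSO (log2 fold changes 2.98 ± 0.25 over panobinostat and 2.55 ± 0.25 over DMSO). C3AR1, the receptor of the complement peptide C3a, had 7.32 and 6.30 CPM with ricolinostat, 1.21 and 1.41 CPM with panobinostat and 1.19 and 1.34 CPM in DMSO (2.36 ± 0.26 over panobinostat and 2.42 ± 0.27 over DMSO). TNC, the matrix protein tenascin C, had 13.6 and 14.3 CPM with ricolinostat, 0.744 and 0.601 CPM with panobinostat and 4.49 and 4.21 CPM in DMSO (4.38 ± 0.25 over panobinostat and 1.68 ± 0.20 over DMSO). SEMA3A, a secreted semaphorin, had 22.6 and 18.7 CPM with ricolinostat, 1.72 and 1.86 CPM with panobinostat and 6.82 and 6.93 CPM in DMSO (3.52 ± 0.17 over panobinostat and 1.59 ± 0.14 over DMSO). For GCNT3 and C3AR1 the panobinostat and DMSO libraries lay within 1 CPM of each other, while for TNC and SEMA3A panobinostat was below DMSO.

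Others were lower with ricolinostat than with both, chosen in the same way. SLC43A2, an amino acid transporter, had 3.55 and 2.31 CPM with ricolinostat, 24.3 and 26.2 CPM with panobinostat and 6.31 and 7.30 CPM in DMSO (-3.10 ± 0.17 over panobinostat and -1.21 ± 0.19 over DMSO). FAM222A had 5.14 and 4.76 CPM with ricolinostat, 33.6 and 35.7 CPM with panobinostat and 10.2 and 11.1 CPM in DMSO (-2.81 ± 0.13 over panobinostat and -1.11 ± 0.15 over DMSO). SGK1, a serum-regulated and glucocorticoid-regulated kinase, had 16.4 and 19.3 CPM with ricolinostat, 42.3 and 45.7 CPM with panobinostat and 37.1 and 33.7 CPM in DMSO (-1.31 ± 0.08 over panobinostat and -0.99 ± 0.08 over DMSO). EPB41L4B had 4.62 and 4.85 CPM with ricolinostat, 9.63 and 10.3 CPM with panobinostat and 9.49 and 9.24 CPM in DMSO (-1.08 ± 0.16 over panobinostat and -0.98 ± 0.16 over DMSO). For SGK1 and EPB41L4B the panobinostat libraries were at or slightly above the DMSO libraries, and for SLC43A2 and FAM222A they were far above.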
